A study of Homo sapiens with 8 samples.

Results

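Coat proteins and Golgi transport genes were followed through the stress treatments of HepaRG cells, a differentiated human hepatic cell line. The group holds 36 genes, taken by their listed symbols from the 62703 genes of the count table, and all 36 were found. They fall into 3 ARF exchange factors, 5 ARF GTPases, 8 COPI coatomer subunits, 10 COPII coat genes, 3 Golgi matrix proteins, 2 CREB3 family transcription factors, and 5 cargo and retrieval receptors.

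Coat proteins bend membrane into transport vesicles. COPII, assembled by the GTPase SAR1 from inner SEC23 and SEC24 and outer SEC13 and SEC31 subunits, carries new cargo out of the endoplasmic reticulum (ER). COPI, recruited by ARF GTPases, returns escaped ER residents and moves material within the Golgi, and KDEL receptors recognise the escaped ER proteins. ARF needs an exchange factor to load GTP, and brefeldin A traps the exchange factors GBF1, ARFGEF1 and ARFGEF2 on ARF, so that COPI leaves the membrane. In hepatocytes this route exports albumin, apolipoproteins and other plasma proteins.

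Bought differentiated HepaRG cells were cultured for 7 days, treated for 24 h and profiled with the Parse Evercode whole-transcriptome assay, which counts unique molecular identifiers (UMIs) in single cells. Treatments were brefeldin A at 0.001, 0.01 and 0.1 µM, tunicamycin at 0.001, 0.01 and 0.1 µM, cycloheximide at 0.2, 2 and 20 µM, etoposide at 0.25, 2.5 and 25 µM, rotenone at 0.2 and 0.4 µM, and tert-butylhydroquinone (tBHQ) at 3, 30 and 300 µM. The control was the vehicle, 0.1% DMSO, which the treated cultures carried too, and all cells met actinomycin D and anisomycin, inhibitors of transcription and translation, while they were dissociated. A culture is 1 sample name of the cell table, and the number that opens the name is called its run. Treatment names in the cell table also end in a replicate number. No source used here defines the runs, and the methods give 1 biological replicate per condition, so the spread between cultures may be technical.

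UMIs were summed over the passing cells of each culture and scaled to CPM, the UMIs of a gene per 1000000 UMIs of its culture. The 17 treatments compared had 27 cultures of 37 to 1434 cells with 1741603 to 97081214 UMIs. The 4 DMSO cultures, of runs 3, 4, 5 and 6, held 250, 127, 311 and 93 cells with 12552536, 3417334, 33404488 and 4819220 UMIs, and their values are given below in that order. The DMSO culture of run 4 stood apart with 3.57% mitochondrial UMIs, against up to 14.4% in the others. The 8 hepatocyte markers (albumin, APOB and others) summed to 9827 to 23851 CPM in DMSO with none at 0. Cells were not divided into classes, so a change of cell makeup and a change within cells cannot be told apart.

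In DMSO the 36 genes together took 2845 to 2999 CPM in each culture. COPB2, a COPI subunit, varied least between the 4 cultures, with a coefficient of variation of 3.46%, and COPE, another COPI subunit, varied most, with 39.4%. The median over the members was 13.3%. DMSO run 4 gave the lowest of the 4 values for 16 members and run 5 the highest for 17. In the brefeldin A cultures the sum was 2915, 2772 and 2921 CPM from the lowest to the highest dose, with the middle value below the DMSO range. It was 2515 and 2824 CPM in the cultures with 20 µM cycloheximide, 3496 CPM with 0.2 µM rotenone, and 3932 and 3251 CPM with 0.4 µM rotenone.

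**Figure D1:**
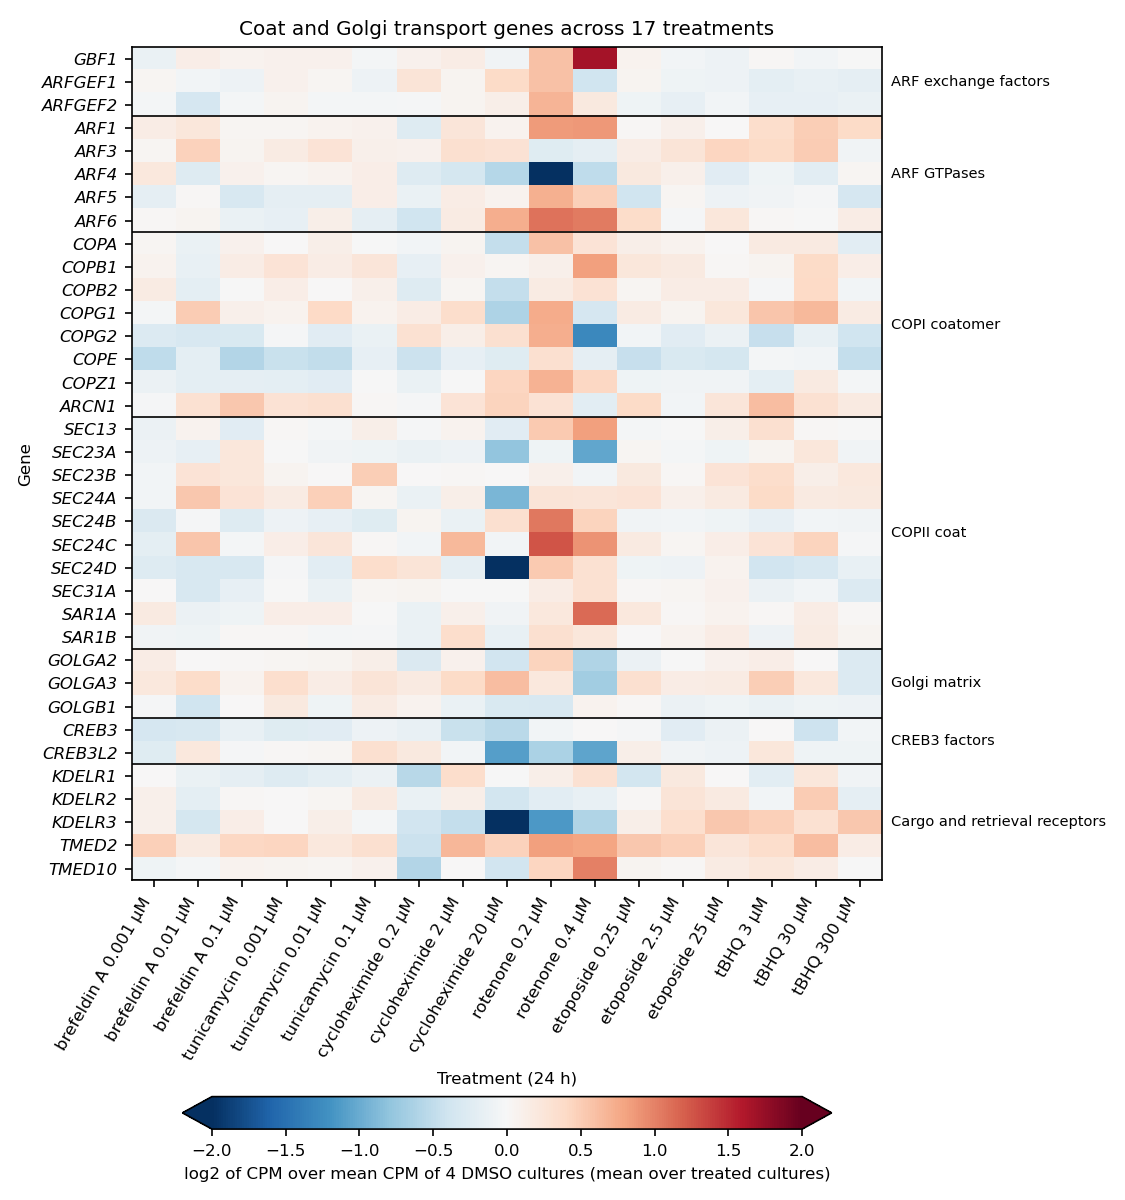
Log2 ratio of the CPM with each treatment (mean of its cultures) to the mean of the 4 DMSO cultures, for 36 genes in rows by role and 17 treatments in columns, with the colour scale ending at -2 and 2. The strong colours lie in the columns of 20 µM cycloheximide and of both rotenone doses, while the brefeldin A, tunicamycin, etoposide and tBHQ columns are pale.

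The promoters of the members were read for 3 elements bound by transcription factors of Golgi and ER stress, a feature that the choice of genes did not use. Of the 36 members, 32 matched a RefSeq promoter of GRCh38.p14, 250 bases before to 50 after a start site, and ARFGEF1, ARF4, SEC24D and KDELR2 did not. The Golgi stress element ACGTGGC, searched on both strands, stood in 14 of these 32 genes (43.8%), against 3.95% of 27305 genes with a promoter and 5.71% of the 8300 genes of at least 10 CPM in DMSO. The unfolded protein response (UPR) element TGACGTG, which shares ACGTG with the first, stood in 10 of 32 (31.3%), against 2.40% and 3.65%. The ER stress response element, CCAAT followed after 9 bases by CCACG, stood in 0 of 32 and in 0.0769% of 35116 promoters. Either of the first pair stood in 18 members and both in 6.

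Stretches are shown for 7 members, 6 of which passed a test below (KDELR3, SAR1A, ARF1, SEC13, SEC24C and TMED2) and 1 of which, COPB2, was the steadiest in DMSO. Other members with an element, among them SEC24A, SEC23A and GOLGA3, which were called lower below, are not shown. Each runs 5′ to 3′ on the strand of its gene, with the matched element in capitals. They lie at chr22:38468024-38468077 (plus strand, KDELR3), chr10:70170684-70170740 (minus, SAR1A), chr1:228082667-228082707 (plus, ARF1), chr3:10321224-10321280 (minus, SEC13), chr10:73744275-73744331 (plus, SEC24C), chr12:123584432-123584488 (plus, TMED2) and chr3:139389737-139389867 (minus, COPB2).
KDELR3: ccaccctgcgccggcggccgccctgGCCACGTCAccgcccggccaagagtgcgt
SAR1A: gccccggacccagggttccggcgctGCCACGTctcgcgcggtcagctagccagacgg
ARF1: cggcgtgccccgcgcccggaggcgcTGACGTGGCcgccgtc
SEC13: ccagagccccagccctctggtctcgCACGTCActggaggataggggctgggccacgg
SEC24C: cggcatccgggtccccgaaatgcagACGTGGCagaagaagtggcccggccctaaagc
TMED2: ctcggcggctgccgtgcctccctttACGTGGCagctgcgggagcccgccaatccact
COPB2: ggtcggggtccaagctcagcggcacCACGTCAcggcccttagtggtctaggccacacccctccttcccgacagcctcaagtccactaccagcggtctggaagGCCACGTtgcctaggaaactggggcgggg
In KDELR3 and ARF1 both elements overlap in 1 run of capitals, while in COPB2 they stand apart. The capitals of SEC13 are the UPR element, with its Golgi stress element outside the stretch, and those of SAR1A, SEC24C and TMED2 are the Golgi stress element. A match describes letters only and does not show a bound site.

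Brefeldin A acts on products of this group, and its cultures are described first. None of the 35 members that passed the expression filter was 2-fold from DMSO at any of the 3 doses. Members that reached 10 CPM and 30 UMIs in the higher condition passed the filter, which KDELR3 missed. A gene was counted when it was at least 2-fold from the pooled DMSO cultures and outside their range. Of all genes passing, 1.91% were counted at 0.001 µM, 1.62% at 0.01 µM and 0.284% at 0.1 µM. Each dose had 1 culture, of run 4, with 119, 95 and 123 cells, so the values carry no replicate error and no test. Cultures of run 1 at the lower doses, with 15 and 8 passing cells, were left out.

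The 3 targets stayed within the DMSO range at 0.1 µM. GBF1, which activates ARF at the early Golgi, was at 128, 155 and 147.5 CPM from the lowest to the highest dose, against 143, 157, 146 and 117 CPM in the DMSO cultures. ARFGEF1, which activates ARF at the trans-Golgi, was at 164, 155 and 149 CPM against 170.3, 186, 140.0 and 146 CPM. ARFGEF2, its close relative, was at 137, 111 and 137 CPM against 143, 158, 123 and 138 CPM. The value of ARFGEF2 at 0.01 µM was the only one of these 9 that lay outside the DMSO range. At 0.1 µM the log2 ratio of GBF1 to pooled DMSO was 0.04, with a 95% interval from -0.03 to 0.11 that covers counting error only.

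At 0.1 µM, 5 members lay above the DMSO range, 7 below it and 23 inside it. The 12 outside were 34.3% of the members passing, and 30.6% of all genes passing lay outside (9.38% above and 21.2% below). At 0.001 and 0.01 µM, 10 and 18 members were outside (28.6% and 51.4%), against 32.4% and 50.4% of all genes. The median log2 ratio of the members was 0.01 at 0.1 µM, and that of all genes was -0.09.

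The COPI coat gave the lowest and the highest ratio at 0.1 µM. COPE, its epsilon subunit, was at 21.4, 26.5 and 20.1 CPM with rising dose against 21.6, 23.4, 47.6 and 28.4 CPM in DMSO, a log2 ratio to the DMSO mean of -0.59 at 0.1 µM. ARCN1, the delta subunit, was at 50.02, 62.9 and 74.2 CPM against 48.2, 45.4, 62.4 and 47.7 CPM, a log2 ratio of 0.54. COPE thus lay just under the lowest DMSO culture and ARCN1 above the highest. To pooled DMSO, the ratio by which the fold was counted, COPE was at -0.93, and this passed 2-fold at -1.11 without DMSO run 3 and at -1.02 with all cells kept.

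In the COPII coat, SEC24D, a cargo-binding subunit, was at 64.3, 61.3 and 61.2 CPM, below all 4 DMSO values of 67.3, 82.8, 80.9 and 75.7 CPM. Its relative SEC24A was at 62.2, 93.1 and 78.0 CPM against 63.1, 63.5, 69.6 and 61.4 CPM, so the upper doses lay above DMSO. The log2 ratio of SEC24A to SEC24B was -0.16, 0.16 and 0.13 at the 3 doses and -0.61 to -0.22 in DMSO, above the DMSO range each time.

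TMED2, a cargo receptor of the p24 family, was at 55.4, 45.3 and 53.3 CPM against 40.3, 22.8, 46.0 and 50.8 CPM. Against the DMSO culture of the same run alone, its log2 ratio at 0.1 µM was 1.22, because that DMSO culture held the lowest value. KDELR1, a retrieval receptor for ER proteins, stayed inside the DMSO range at every dose, with 53.5, 48.5 and 47.2 CPM against 55.8, 27.2, 71.2 and 58.7 CPM. KDELR3, its stress-associated relative, was at 7.91, 5.76 and 8.07 CPM against 6.13, 5.27, 7.57 and 10.4 CPM.

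Of the GTPases, ARF5, which works with COPI, was at 12.6, 14.4 and 11.4 CPM against 12.7, 9.07, 19.0 and 16.2 CPM. ARF6, which works at the plasma membrane, was at 26.3, 27.0 and 23.5 CPM against 29.5, 12.6, 34.0 and 27.4 CPM. All 6 values lay inside the DMSO range. GOLGA2, a Golgi matrix protein that tethers vesicles, was at 73.7, 66.8 and 68.0 CPM against 77.1, 57.4, 69.1 and 63.3 CPM, again inside the range. GOLGA3, another golgin, was at 63.3, 70.9 and 57.1 CPM against 58.2, 44.2, 61.2 and 55.0 CPM, above the range at the lower doses and inside it at 0.1 µM.

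Of the CREB3 factors, which are activated by cleavage in the Golgi and drive secretory genes, CREB3 was at 11.6, 11.8 and 13.2 CPM against 16.4, 10.2, 18.2 and 13.7 CPM. CREB3L2 was at 90.6, 124 and 106 CPM against 103, 104.5, 124 and 97.9 CPM. At 0.1 µM both lay inside the DMSO range. Of the other pathway genes, 0 of 101 passing were past the fold at 0.1 µM, and log2 ratios from -0.80 (GOLGA8A) to 0.62 (PREB). HSPA5, the ER chaperone that rises with ER stress, was at 365, 346 and 383 CPM against 313, 288, 378 and 313 CPM, and 0 of 15 UPR genes were past the fold at 0.1 µM. The paper names HSPA5 as the most induced gene at this dose in its TempO-LINC data, so the response in this 1 culture may differ from that one.

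**Figure D2:**
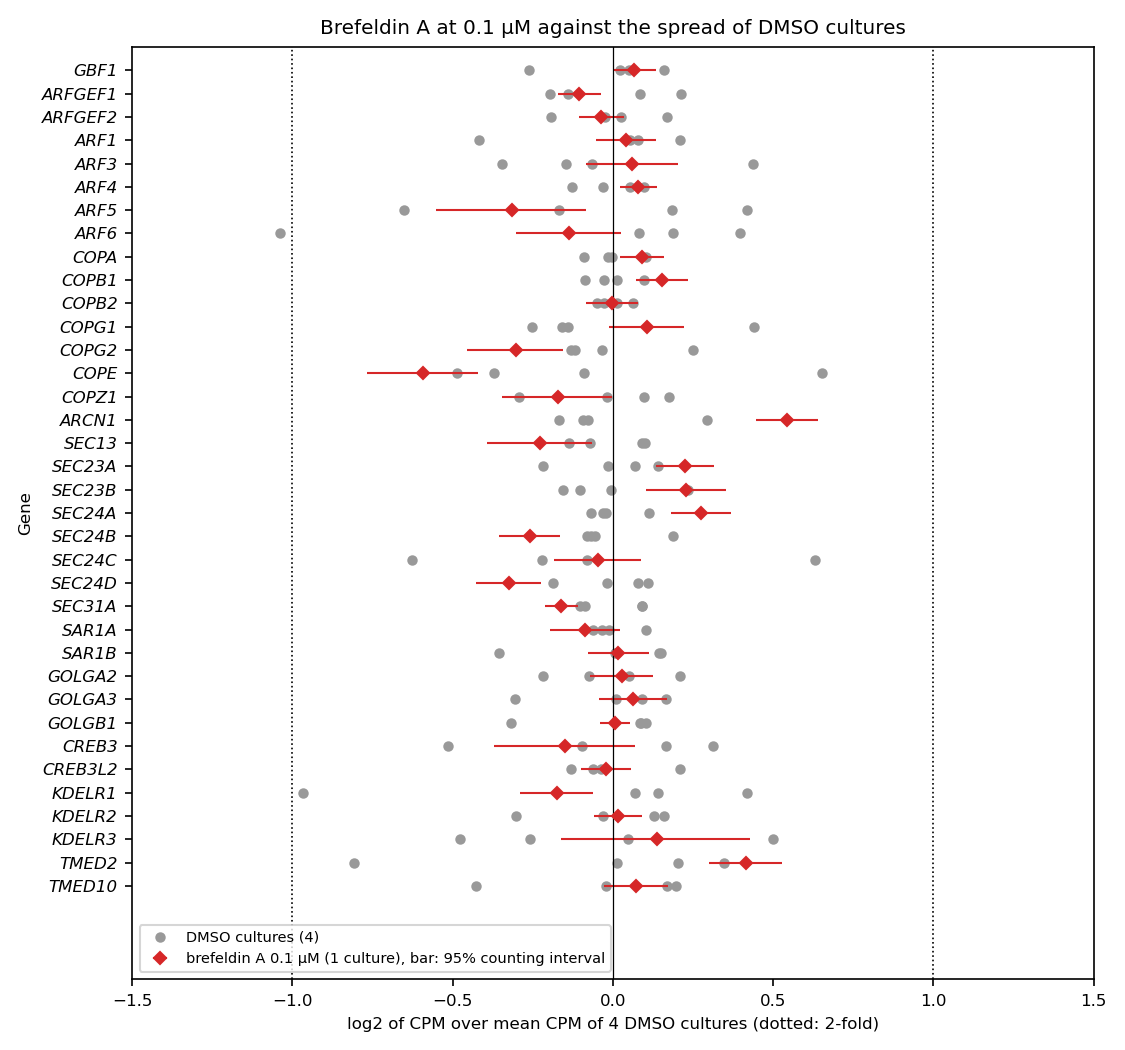
Log2 ratio of CPM to the mean of the 4 DMSO cultures on the x axis for each of 36 genes, with the 0.1 µM brefeldin A culture as a diamond whose bar has the width of its 95% counting interval, and the DMSO cultures as small points. The brefeldin A values run from -0.59 for COPE to 0.54 for ARCN1, and 12 of the 35 members passing lie outside their DMSO points.

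Tunicamycin, which blocks N-linked glycosylation and loads the ER with unfolded protein, was compared in 2 cultures per dose, of runs 3 and 4. No member passed edgeR's quasi-likelihood test at a Benjamini-Hochberg adjusted p under 0.05 at any dose. The count was also 0 with DESeq2, and 0, 1 and 2 members had an unadjusted p under 0.05 at 0.001, 0.01 and 0.1 µM. Of all genes tested, 0%, 0% and 0.00538% were called by edgeR at the adjusted p, and no share is given for unadjusted p. The groups did not overlap for 6, 3 and 5 members, against 8.72%, 10.4% and 10.9% of genes of at least 10 CPM. At 0.1 µM, SEC23B, an inner COPII subunit, was at 47.8 and 55.9 CPM against 36.6, 34.2, 43.3 and 33.0 CPM, and SEC24D was at 91.2 and 106 CPM. Both genes lay above their DMSO range in both cultures, with adjusted p = 1.00 each by edgeR. HSPA5 was at 668 and 458 CPM, above every DMSO culture, with a log2 fold change of 0.80 ± 0.20 (SE) and an adjusted p of 0.721 by edgeR. The 17 UPR genes had a median log2 fold change of 0.66 at this dose, and the members one of 0.03.

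The log2 ratio of SEC23A to SEC23B at 0.1 µM tunicamycin was 0.33 and 0.48, against 0.73 to 1.28 in DMSO. The ratio of SEC24A to SEC24B at 0.01 µM was 0.13 and 0.32, against -0.61 to -0.22. Neither pair of groups overlapped. These ratios compare each gene with itself across cultures and do not compare levels between genes, which were not set per length.

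Etoposide, a topoisomerase II inhibitor, and the lower cycloheximide doses likewise gave 0 members called by edgeR or by DESeq2. The background was 0% of genes at each etoposide dose and at 0.2 µM cycloheximide, and 0.00502% at 2 µM cycloheximide. The number of members with an unadjusted p under 0.05 was 0 at 0.25, 2.5 and 25 µM etoposide, 0 at 0.2 µM and 2 at 2 µM cycloheximide. For that threshold too, no share of all genes is given. With etoposide the groups did not overlap for 3, 2 and 2 members with rising dose, against 11.9%, 8.22% and 16.0% of genes of at least 10 CPM, and with 0.2 and 2 µM cycloheximide for 5 and 1, against 12.1% and 17.6%. TMED2 had the smallest p at 2 µM, with 41.9 and 96.3 CPM and an adjusted p of 0.662 by edgeR. tBHQ, an activator of the NRF2 oxidative stress response, had 1 culture of run 4 per dose and 0 members past the fold at 3, 30 and 300 µM, against 0.818%, 1.92% and 2.23% of all genes. Outside the DMSO range were 15 of 36, 18 of 35 and 9 of 36 members passing, against 46.9%, 44.3% and 40.5% of all genes. The highest ratios were those of ARCN1 at 3 µM (0.62), COPG1 at 30 µM (0.65) and KDELR3 at 300 µM (0.54). KDELR3, at 10.7 CPM there and 5.27 to 10.4 CPM in DMSO, passed the filter of 10 CPM only through its treated value.

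With 20 µM cycloheximide, which stops translation elongation, 4 of the 36 members were lower and 0 higher. KDELR3, SEC24D, CREB3L2 and SEC24A fell, by edgeR's quasi-likelihood test on 2 treated and 4 DMSO cultures. Of all 18706 genes tested, 13.2% were lower and 6.52% higher, so the share of members that fell was near the background. DESeq2 called 5 members, beside 1647 higher and 2177 lower of all genes. With an unadjusted p under 0.05 by edgeR there were 10 members, and no share of all genes is given for that threshold. The median log2 fold change of the members was -0.08, beside -0.12 over all genes tested. The groups did not overlap for 14 members, against 46.3% of genes of at least 10 CPM.

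KDELR3, on chr22:38468078-38483447, was at 0.401 and 1.61 CPM in the treated cultures of runs 3 and 4 against 6.13, 5.27, 7.57 and 10.4 CPM in DMSO. The groups did not overlap. These rest on 4 and 3 UMIs in the treated cultures and 398 in DMSO, a pooled ratio 12.4-fold lower with a 95% counting interval from 5.98 to 31.1. The log2 fold change was -3.46 ± 0.62 (SE) with an adjusted p of 0.0027. Lower doses gave 6.93 and 4.59 CPM at 0.2 µM, and 2.13 and 13.1 CPM at 2 µM.

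SEC24D, on chr4:118722823-118838683, fell to 10.5 and 23.6 CPM from 67.3, 82.8, 80.9 and 75.7 CPM in DMSO, and the log2 fold change was -2.29 ± 0.32 with an adjusted p of 0.000526. It was at 91.6 and 91.3 CPM at 0.2 µM and at 51.9 and 88.8 CPM at 2 µM. After each cell was thinned to 10000 UMIs, 7.24% of 221 cells (95% exact interval 4.19 to 11.5) and 21.6% of 37 cells (9.83 to 38.2) held a SEC24D UMI at 20 µM. In the DMSO cultures the share was 35.9% to 51.8%. Unthinned, the shares were 31.7% and 51.4% against 54.7% to 87.6%. No cell class that should lack these genes was set, so no background share is given.

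CREB3L2, on chr7:137874979-138002086, fell to 55.4 and 45.0 CPM from 103, 104.5, 124 and 97.9 CPM, which is -1.08 ± 0.21 on the log2 scale (adjusted p 0.0041). SEC24A, on chr5:134648785-134727909, fell to 29.3 and 40.1 CPM from 63.1, 63.5, 69.6 and 61.4 CPM, with -0.92 ± 0.22 (SE, adjusted p 0.0128). The groups did not overlap for either gene. SEC24A overlaps its neighbour SAR1B, on the other strand, by 487 bases, and SAR1B was at 48.9 and 83.5 CPM against 71.4, 55.6, 78.6 and 78.9 CPM.

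Within the COPII coat some relatives parted at this dose. No share over other gene pairs is given, and 46.3% of single genes of at least 10 CPM did not overlap DMSO here. The log2 ratio of SEC24C to SEC24D was 1.39 and 0.79 against -1.74 to -0.58 in DMSO, and that of SEC24A to SEC24B was -1.69 and -1.59 against -0.61 to -0.22. SEC24B, the relative of SEC24A, was at 94.2 and 121 CPM against 82.0, 97.2, 81.4 and 80.7 CPM and did not pass (adjusted p 0.268). In the COPI coat the log2 ratio of COPG1 to COPG2, the alternative gamma subunits, was -0.88 and -0.39 against -0.11 to 0.87.

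**Figure D3:**
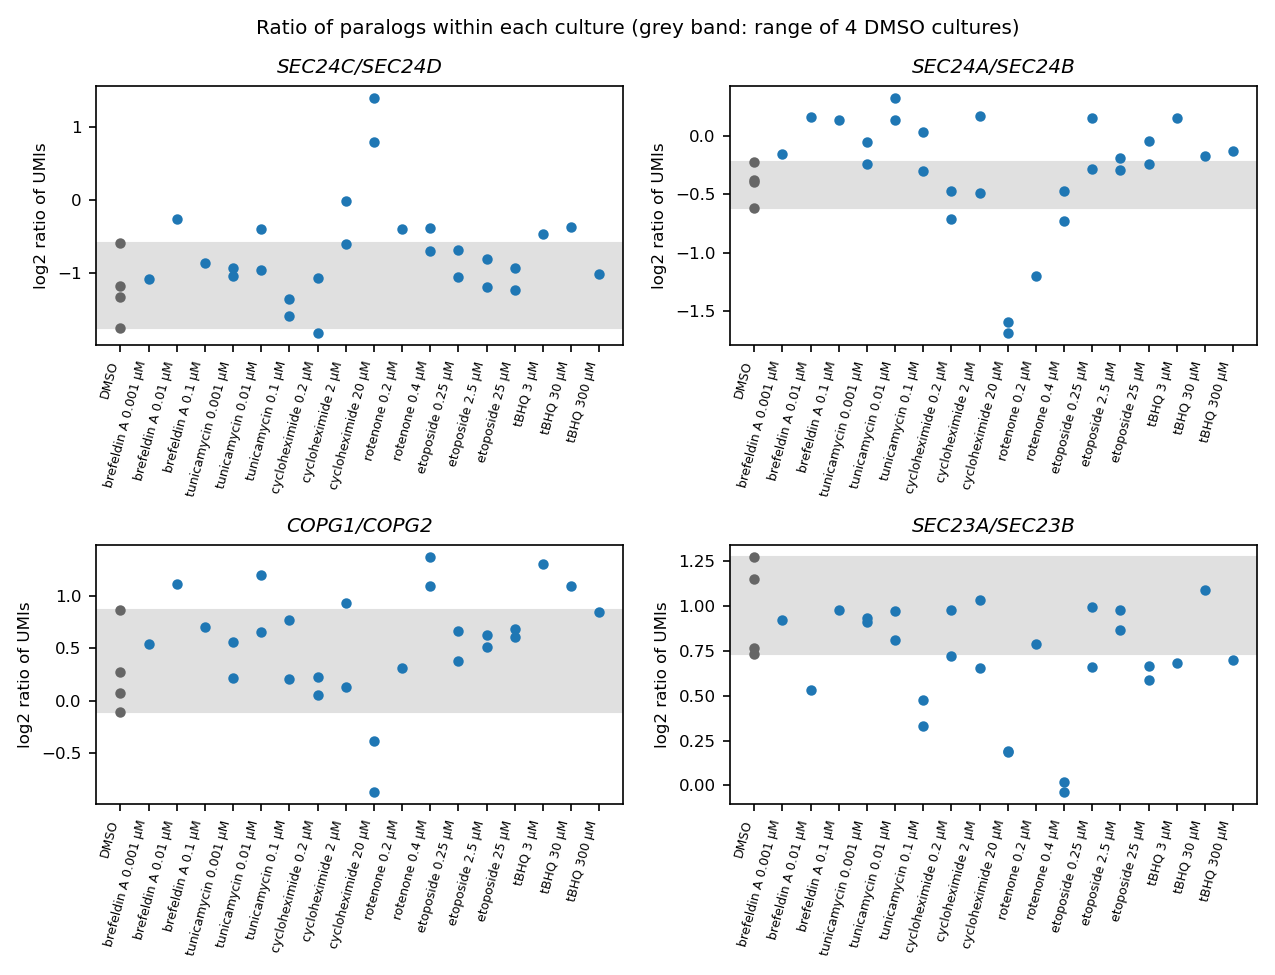
Log2 ratio of the CPM of paired relatives (SEC24C to SEC24D, SEC24A to SEC24B, COPG1 to COPG2, SEC23A to SEC23B) for every culture, by treatment. At 20 µM cycloheximide both cultures lie outside the DMSO cultures for all 4 pairs, above for SEC24C to SEC24D and below for the other three. Other pairs were followed but are not shown.

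The 3 members closest to the threshold were SEC23A (log2 fold change -0.76, adjusted p 0.052), GOLGA3 (0.61, 0.0525) and ARF4 (-0.58, 0.0543), all by edgeR. With TMM factors or DESeq2, GOLGA3 was called higher, giving 1 higher and 4 lower. Without the 20 µM culture of run 3 only SEC24D and CREB3L2 were called, and without that of run 4 the count was 6.

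Some other secretory genes were called at 20 µM too. Of 112 other pathway genes tested, 3 were higher and 9 lower, smaller shares than the 6.52% and 13.2% of all genes. Among them were ERGIC1 (0.81), a cargo receptor, and SEC16B (-2.39), which organises ER exit sites. Of 17 UPR genes, 12 were lower and ATF4 alone was higher, with XBP1 at -2.41. The hepatocyte markers summed to 2623 and 6131 CPM against 9827 to 23851 CPM in DMSO, with all 8 of 8 lower. Cholangiocyte markers (KRT7 and others) summed to 23.4 to 51.4 CPM against 93.6 to 146 CPM, with 1 higher and 2 lower of 5 tested. The part of these markers in the falls of the members was not tested.

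Rotenone, which blocks complex I of the respiratory chain, gave the most called members at 0.4 µM, where 9 were higher and 6 lower of 36. The 2 cultures, of runs 5 and 6, entered edgeR beside the 4 DMSO cultures. Of all 19831 genes tested, 19.1% were higher and 42.2% lower, so a smaller share of the members than of all genes was lower. Groups did not overlap for 23 members, against 74.4% of genes of at least 10 CPM. The median log2 fold change was 0.25 over the members and -0.56 over all genes tested. These sets are not matched for level: 10749 genes were of at least 10 CPM, a DMSO mean that every member but KDELR3 had. With TMM factors 19 members were higher and 3 lower, beside 5570 higher and 6078 lower of all genes, with medians of 0.71 and -0.10. With DESeq2 21 members were higher and 3 lower, beside 5643 higher and 5564 lower of all genes. The members' median thus moved from 0.25 with total counts to 0.71 with TMM factors, so the direction of a gene near 0 depends on the scaling. Its distance above the median of all genes was 0.81 with both.

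GBF1 had the largest rise of the members. It lies on chr10:102245371-102382899, and its values were 541 and 369 CPM against 143, 157, 146 and 117 CPM in DMSO (141 ± 16.8, SD, n = 4). Both treated cultures were above all DMSO cultures. The log2 fold change was 1.69 ± 0.22 (SE) with an adjusted p of 3.45e-05, and it lay 2.25 above the median of all genes. Thinned to 10000 UMIs per cell, 97.3% of 411 cells (95% exact interval 95.3 to 98.7) and 93.6% of 109 cells (87.2 to 97.4) held a GBF1 UMI, against 65.2% to 76.3% in DMSO. At 0.2 µM GBF1 was at 210.3 CPM in the 1 culture, above the DMSO range, with a share of 78.5%.

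SAR1A, which starts COPII assembly, was at 134 and 122 CPM against 57.1, 57.9, 56.0 and 62.9 CPM, which is 1.13 ± 0.18 on the log2 scale with an adjusted p of 0.000191 by edgeR. Its relative SAR1B was at 93.7 and 74.0 CPM, overlapping the DMSO values. ARF6 (1.08), the cargo receptors TMED10 (1.00) and TMED2 (0.80), the COPII genes SEC24C (0.88) and SEC13 (0.83), ARF1 (0.87), the main COPI recruiter, and COPB1 (0.82), a COPI subunit, also rose by edgeR. Their adjusted p ranged from 0.0013 to 0.0226, and under the other scalings, TMM factors and DESeq2, all 9 were called higher too. With the run as a block, only GBF1, SAR1A and TMED10 of these 9 kept the call. Leaving out the treated culture of run 5 ended the calls of SEC24C and TMED2, and leaving out that of run 6 those of ARF6 and SEC24C.

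COPG2, on chr7:130506238-130668748, fell to 15.2 and 14.1 CPM from 32.8, 42.4, 32.5 and 34.9 CPM, which is -1.27 ± 0.23 on the log2 scale with an adjusted p of 0.00051 by edgeR. MEST and COPG2IT1 overlap it on the other strand. CREB3L2 fell to 48.0 and 55.8 CPM (-1.05, adjusted p 0.0008), and SEC23A to 37.0 and 33.3 CPM (-1.04, adjusted p 0.001) from 62.4, 76.1, 71.8 and 79.9 CPM. No group of these 3 genes overlapped DMSO, and they were called lower under TMM factors and DESeq2 too. GOLGA3 (-0.65), GOLGA2 (-0.61) and ARF4 (-0.50) were called lower with total counts only, and not with TMM factors, size factors or DESeq2. All 3 also lost the call without DMSO run 3.

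**Figure D4:**
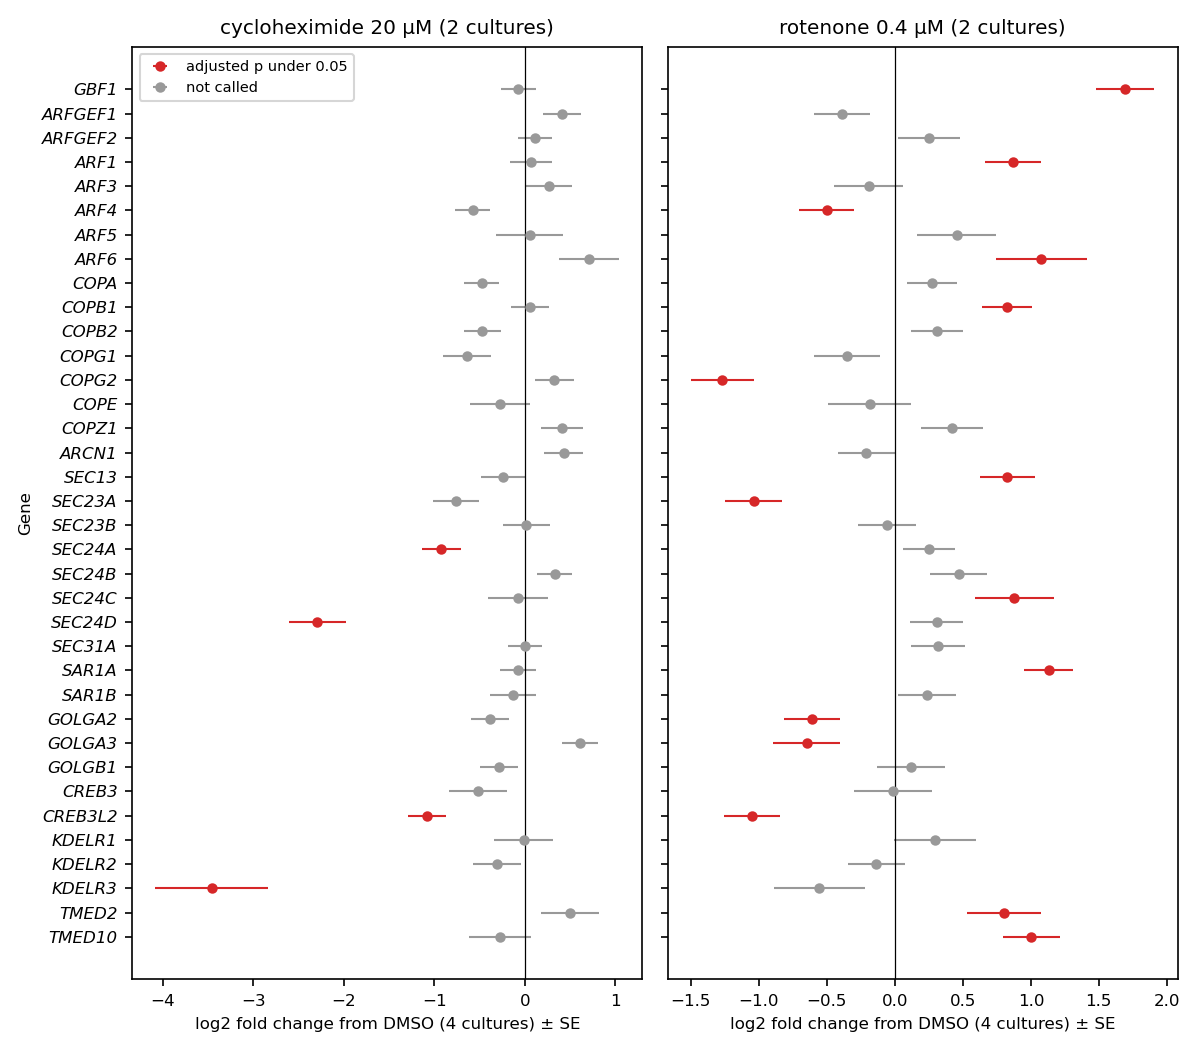
Log2 fold change with its standard error from edgeR for the members at 20 µM cycloheximide and at 0.4 µM rotenone, each against the 4 DMSO cultures, with called genes coloured and different x ranges in the panels. KDELR3 (-3.46) and SEC24D (-2.29) lie lowest with cycloheximide, and GBF1 (1.69) highest with rotenone.

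Between relatives, the log2 ratio of SEC23A to SEC23B was -0.04 and 0.02 at 0.4 µM rotenone against 0.73 to 1.28 in DMSO, and that of COPG1 to COPG2 was 1.10 and 1.38 against -0.11 to 0.87. The groups did not overlap for either pair. CREB3L2 was the only member called lower both at 20 µM cycloheximide and at 0.4 µM rotenone, and these comparisons share the DMSO cultures.

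Beside these changes, 29 of 113 other pathway genes were higher and 24 lower, against 19.1% and 42.2% of all genes. RAB30 (2.73) and RAB18 (2.48), small GTPases of Golgi and ER membranes, were among the rises, and TRAPPC9 (-3.56), a tethering subunit, among the falls. Of 17 UPR genes, 6 were higher, led by ATF4 (2.77), and 2 lower. HSPA5 was at 358 and 372 CPM and did not pass (adjusted p 0.472 by edgeR). Cycling markers (MKI67 and others) summed to 483 to 779 CPM against 86.9 to 611 CPM in DMSO, with 4 of 6 called higher. Hepatocyte markers summed to 9008 to 17060 CPM against 9827 to 23851 CPM, with 3 of 8 called lower. Mesenchymal markers summed to 30.8 to 36.8 CPM against 86.9 to 174 CPM, with 2 of 4 tested called lower, and nuclear-retained RNAs to 19859 to 20213 CPM against 32040 to 50752 CPM. The part of these markers in the results was not tested.

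Gene length went with the fold changes at 0.4 µM rotenone, read over fewer genes than the 19831 tested. The median log2 fold change was 0.28 over 1068 genes spanning under 10 kb, -0.12 over 6499 genes of 10 to 100 kb and -1.04 over 3177 genes over 100 kb. The members had medians of 0.38, 0.25 and 0.25 in the same classes, with 4, 24 and 7 genes. GBF1 spans 137.5 kb. The median of the members over 100 kb thus lay above that of their class, with no test of the difference. COPG2 (162.5 kb, -1.27) and CREB3L2 (127.1 kb, -1.05) lay below the class median.

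At 0.2 µM rotenone 1 culture of run 5, with 449 cells and 97081214 UMIs, was compared without a test. SEC24B was past 2-fold higher and ARF4 past 2-fold lower of the 35 members passing, where 16.2% and 19.3% of all genes were. ARF4, a GTPase that works with COPI, was at 45.8 CPM against 169.6, 181, 192 and 198 CPM in DMSO. Its log2 ratio to pooled DMSO was -2.03 with a 95% counting interval from -2.08 to -1.98. It had a UMI in 36.2% of 447 thinned cells (95% exact interval 31.8 to 40.9), against 70.2% to 75.2% in DMSO, and in 93.7% of unthinned cells against 90.6% to 95.1%. At 0.4 µM ARF4 was at 146 and 115 CPM, and the doses were not tested against each other.

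SEC24B, on chr4:109433772-109540896, was at 177 CPM at 0.2 µM rotenone against 82.0, 97.2, 81.4 and 80.7 CPM in DMSO, a log2 ratio of 1.10 to pooled DMSO with a counting interval from 1.05 to 1.15. Of the 35 members, 24 lay above the DMSO range and 3 below it, against 44.5% and 34.9% of all genes. In either direction, 79.4% of all genes lay outside. SEC24C was at 83.2 CPM and ARF6 at 54.8 CPM, above every DMSO culture. Their log2 ratios were 0.91 and 0.82 to pooled DMSO, in which run 5 held 33404488 of 54193578 UMIs, but 1.25 and 1.08 to the mean of the 4 cultures, past 2-fold. KDELR3 was at 3.31 CPM, below every DMSO culture.

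Some members stood on opposite sides of DMSO at the rotenone doses. COPG2 was at 59.3 CPM at 0.2 µM and at 15.2 and 14.1 CPM at 0.4 µM, and GOLGA2 at 91.0 CPM and then at 43.97 and 43.7 CPM. The DMSO values of both genes lay between. SEC24D was at 110.0 CPM at 0.2 µM and at 86.3 and 103 CPM at 0.4 µM, above every DMSO culture at both doses. TRIB3, a target of the ATF4 branch of the UPR, was at 190.3 CPM at 0.2 µM and at 16.5 and 19.0 CPM at 0.4 µM, against at most 7.90 CPM in DMSO. The 2 doses had cultures of different number and depth, and these differences carry no test.

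**Figure D5:**
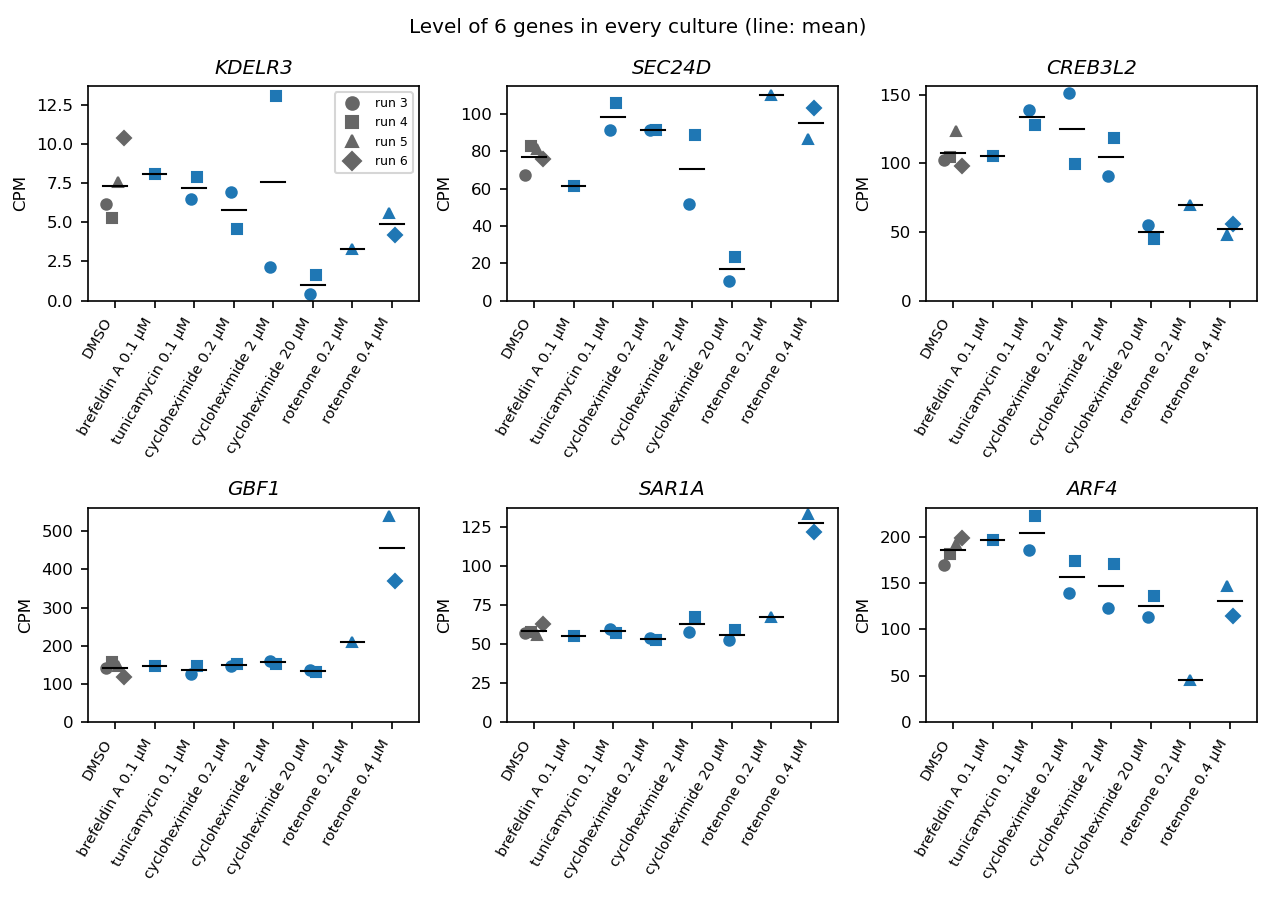
CPM in every culture for KDELR3, SEC24D, CREB3L2, GBF1, SAR1A and ARF4, by treatment. KDELR3 and SEC24D are low in both cultures with 20 µM cycloheximide, GBF1 and SAR1A are high in both with 0.4 µM rotenone, and ARF4 is at 45.8 CPM in the culture with 0.2 µM rotenone.

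The promoter elements were not limited to genes that moved one way. The Golgi stress element stood in 2 of the 3 matched members that fell with 20 µM cycloheximide (KDELR3 and SEC24A), in 5 of the 9 that rose with 0.4 µM rotenone and in 2 of the 5 matched members that fell there. Among the 11 pairs of relatives followed, SEC24A to SEC24B left the DMSO range most often, in 9 of 17 treatments. SEC23A to SEC23B left it in 7 and KDELR3 to KDELR1 in 6, down to SAR1A to SAR1B and KDELR2 to KDELR1 in 1. No share over other gene pairs is given. In the 7 treatments with 1 culture, 30.6% to 79.4% of all single genes lay outside the DMSO range.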

How the data were processed

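The authors deposited 1 matrix of UMI counts per gene and cell, made by their pipeline from reads aligned to GRCh38. The strand of counting and the pipeline version are not named by any source used here. The table held 12976 cells and 1002686268 UMIs, with a median of 45221 per cell. The 8 deposited samples are sublibraries of the same cells' pool, in which 822 well barcodes occurred in more than 1 sublibrary (1735 cells), and no doublet caller was run.

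Counts of the 8406 cells that had 500 genes or more and no more than 20% mitochondrial UMIs were added up per sample name, and cultures under 30 cells were left out. Members and comparison lists were chosen with earlier results of these data known. With 2 or more treated cultures, the genes left by filterByExpr entered edgeR 4.0.16 (quasi-likelihood, R 4.3.3) at total-count scaling, with Benjamini-Hochberg adjustment over all genes. With 1 treated culture, exact conditional binomial intervals (scipy 1.17.1) were given for the ratio to pooled DMSO. DESeq2 1.42.0 was an alternative. Alternatives were TMM and DESeq2 size factors, other filters, mitochondrial and ribosomal protein genes left out, each culture left out, and the run as a block. All 36 members may be named, and values per culture follow the targets of brefeldin A, the largest ratios of each role at 0.1 µM and the largest called changes elsewhere. Other members were named after their values were seen. Gene positions are those of GENCODE 44 on GRCh38. Scripts were tested on simulated data. Medium alone and troglitazone, at doses the labels do not give, entered no comparison.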

Additional observations from a re-analysis of the deposited data

Results flagged for a closer look

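Single DMSO cultures stood apart from the other three for COPG1 (highest culture 59.3 CPM), ARCN1 (highest 62.4 CPM), SEC24B (highest 97.2 CPM) and GOLGB1, a Golgi matrix protein (lowest 244.6 CPM). The criterion was Dixon's 95% critical value for 4 samples, which chance passes in about 1 in 20 groups. In cells kept in medium alone, which are outside the comparisons, the lowest of 3 cultures was above every DMSO culture for GOLGA3 (66.5 CPM) and for TMED2 (54.1 CPM).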

How the results depend on the processing

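The 10 replicated comparisons kept their count of called members within 1.5 times under most alternatives. At 0.4 µM rotenone the count of 15 was 23 with DESeq2 size factors and 24 with DESeq2, and at 20 µM cycloheximide leaving out 1 culture gave 2 to 6 for a count of 4. No source says that a run number marks cultures made together. The differences between the 2 runs in treated and DMSO cultures correlated at 0.38 to 0.64 in 6 of 10 comparisons and at -0.25 to -0.03 in the other 4, those being 2 and 20 µM cycloheximide, 25 µM etoposide and 0.4 µM rotenone. With the run as a replicate block the counts were 6 at 0.4 µM rotenone (without ARF1, ARF6, COPB1, SEC13, SEC24C, TMED2, ARF4, GOLGA2 and GOLGA3), 3 at 20 µM cycloheximide (without SEC24A), and 1 each at 0.25 and 2.5 µM etoposide and 0.001 µM tunicamycin, where it had been 0. The members' median log2 fold change at 0.4 µM rotenone was 0.71 with TMM and 0.75 with size factors, at 0.2 µM rotenone 0.46 and 0.52 (0.32 before), and at 20 µM cycloheximide 0.024 with size factors. At 300 µM tBHQ it was 0.042 without mitochondrial and ribosomal protein genes.

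Members past 2-fold numbered 5 at 0.2 µM rotenone with size factors, and 1 at 0.1 µM brefeldin A with all cells. Leaving out 1 DMSO culture gave 0 to 1 at 0.001 and 0.1 µM brefeldin A and at 300 µM tBHQ, and 2 to 4 at 0.2 µM rotenone. The DMSO culture of the same run alone, an alternative chosen after seeing the data with the expression filter set anew, gave 2, 1 and 1 members at 0.001, 0.01 and 0.1 µM brefeldin A, with medians of 0.14, 0.18 and 0.16, and 2, 3 and 2 at 3, 30 and 300 µM tBHQ, with medians of 0.26, 0.27 and 0.063. No member called by edgeR or past 2-fold changed sign. Medians near 0 did change sign: with TMM or size factors at 20 µM cycloheximide, at 300 µM tBHQ and at both brefeldin A doses under 0.1 µM, without mitochondrial and ribosomal protein genes at the same conditions other than cycloheximide, against the same run's DMSO culture at those same conditions, and with all cells at 0.1 µM brefeldin A and 0.1 µM tunicamycin. KDELR3, at 5.27 to 10.4 CPM in DMSO, is the member whose depth limits it most, and 1 culture per dose gives brefeldin A and tBHQ no replicate error. The cause of these shifts was not tested.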
